A study of Mus musculus with 4 samples.

Results

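The 6 transcription factor genes Zbtb7b, Runx1, Runx3, Cbfb, Gata3 and Patz1, which regulate coreceptor expression and the choice between the CD4 and CD8 lineages, were examined in double positive (DP) thymocytes with and without Tox4. They were taken by symbol from a list named for this role, by a rule that uses no measured value, and were 6 of the 24984 genes counted. The list itself was drawn up with earlier results of these data known. Each of the 6 had a mean of at least 1 CPM, the fragments of a gene per 1000000 fragments counted in the library, as did 11625 genes in all, so no member was lost to a filter on low values.

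The measurement was TTchem-seq, in which 4-thiouridine marks RNA made during a short pulse and the marked RNA is captured after fragmentation and sequenced. Counts covered whole genes, introns included, and stand for transcriptional output rather than for the amount of mature mRNA. The 2 WT libraries carried the genotype label Tox4;F/F, that is, loxP-flanked Tox4 alleles without Cre, and the 2 cKO libraries the label Tox4;F/F;Lck+. Per the study, the Cre transgene was driven by the proximal Lck promoter and deletes the floxed exons 4 to 6 from the DN3 stage on. All 4 libraries thus shared the floxed alleles. The transgene was carried by the cKO libraries only, and its effect cannot be told apart from that of the deletion. The mice were young adult littermates on a C57BL/6 background. The methods describe DP cells purified with a kit that selects for CD4, which CD4 single positive (SP) cells carry as well, and DP cells sorted by flow cytometry, which separates the stages, each for other assays. Which of them was used for TTchem-seq is not stated.

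A DP thymocyte expresses both CD4 and CD8 and, once its T cell receptor has been selected, keeps 1 coreceptor. In cells that recognise MHC class II, GATA3 acts upstream of ThPOK, the zinc finger protein encoded by Zbtb7b, which holds CD4 expression and blocks the CD8 programme. In cells that recognise MHC class I, RUNX3 with its partner CBFβ silences Cd4 and Zbtb7b and activates CD8 genes. RUNX1 is the main RUNX protein before this choice, and PATZ1 (also called MAZR) binds regulatory elements of the Cd8 locus and of Zbtb7b.

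The libraries held between 38429786 and 48690591 fragments, and the intervals for single libraries given here cover counting error only. Tox4 was counted at 74.04 and 70.3 CPM in WT and at 59.3 and 57.2 CPM in cKO, which is a difference of -0.31 on the log2 scale (SE 0.0998, adjusted p-value 0.0453 in DESeq2). This is the direction the genotype labels call for. The Tox4 call was lost when any 1 library was left out, with adjusted p-values of 0.196 to 0.792, and with edgeR (0.122), total count factors (0.0511) and filtering off (0.0821), while the difference stayed between -0.34 and -0.28. The count covers the whole gene and does not measure the deleted exons alone. WT replicate 1 held 172 CPM of Xist, whereas the other libraries held 2.36, 1.09 and 0 CPM, although the methods state that mice were matched for gender. The WT libraries thus differed from each other in this mark of female cells. Its part in their other differences was not tested. Among marker lists, 5 B cell genes summed to 8.86 to 10.1 CPM, 6 myeloid genes to 9.49 to 12.1 CPM and 5 erythroid genes to at most 0.465 CPM per library, against 3980 to 4888 CPM for 7 DP genes. Ebf1 made up most of the B cell sum and Cd68 most of the myeloid sum. The myeloid genes Lyz2 (1.34 and 1.21 CPM in WT, 0.312 and 0.679 CPM in cKO), Spi1, Csf1r and Csf3r were lower in both cKO libraries than in both WT libraries. Itgam was higher in both (1.06 and 1.07 CPM in WT, 1.51 and 1.53 CPM in cKO). Of the 6, 2 had a mean of at least 1 CPM, Itgam and Cd68, and Itgam had no adjusted p-value. Only Cd68 could thus be called, and 0 of the 6 were, which carries no information on the other myeloid genes. Of the 3 thymic epithelial genes, which summed to 0.629 to 1.11 CPM, Psmb11 was at 0 in every library.

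Transcriptional output of Runx3 was higher in cKO than in WT DP cells, and no other of the 6 genes passed the test. Calls required a mean CPM of 1 or more, a fold of 1.2 or more in either direction and an adjusted p-value from DESeq2 below 0.05. At these criteria 1 of the 6 genes was called higher in cKO, where 2.14% of the 11625 genes were called higher, and 0 were called lower, where 1.57% were. With the edgeR quasi-likelihood test 0 of the 6 were called in either direction, where 0.654% of the genes were. For Runx3 and Cbfb each cKO library exceeded each WT library, a separation found for 24.9% of the genes, and both lay below for 0 of the 6, a separation found for 24.0%. The median log2 fold change was 0.07 over the 6 genes, 4 of which had a positive value, and 0.001 over all 11625 genes. Before adjustment, 1570 genes had p-values below 0.05 in DESeq2 and 1812 in edgeR. Since the material is bulk RNA, fewer cells of a type and less RNA made per cell cannot be told apart in any of these values.

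**Figure D1:**
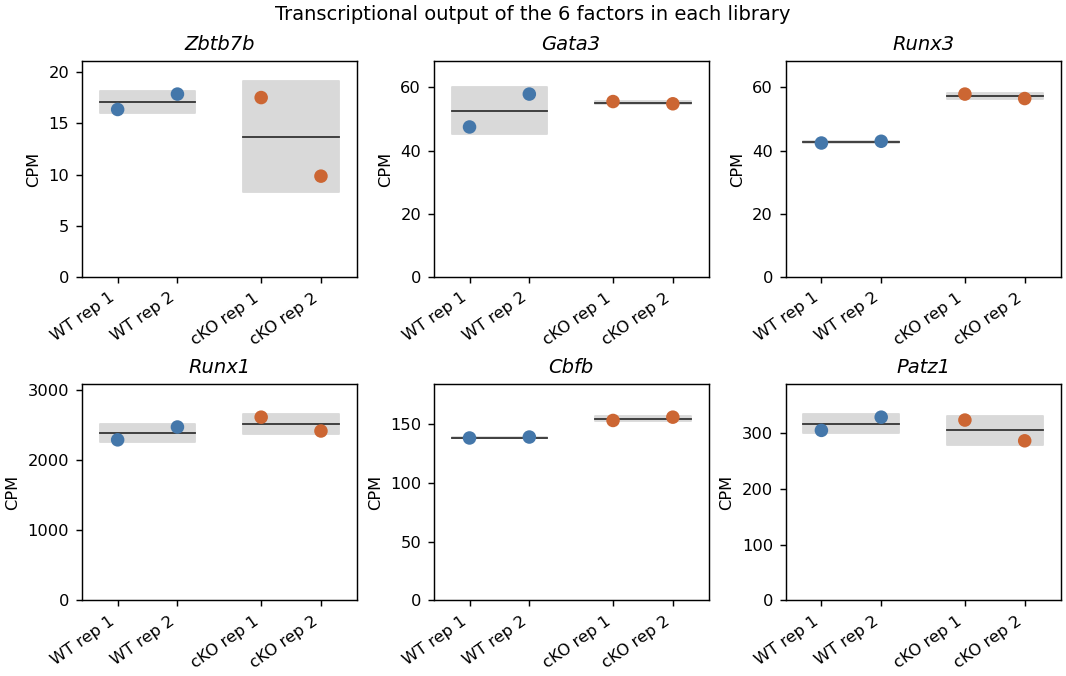
CPM of the 6 genes in each of the 4 libraries (y axis, linear, from 0; each panel has its own scale), with a line at the mean of each genotype. Runx3 was at 42.5 and 43.01 CPM in WT and at 57.9 and 56.5 CPM in cKO, and Zbtb7b was at 9.86 CPM in cKO replicate 2 against 16.4 to 17.9 CPM in the other 3 libraries.

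Runx3, on GRCm38 chromosome 4 (135120645 to 135177990, plus strand, 57346 bp, of which 7.21% is exonic), is transcribed from a pair of promoters that lie 31900 bp apart. The counts cover the whole gene and do not separate output from either promoter. The 250 bases before each RefSeq start (GRCm38.p6) are shown because Runx3 is the gene that was called. The upstream one lies at chr4:135120395-135120644 and the downstream one at chr4:135152295-135152544, both on the plus strand. Capitals mark the core recognised by RUNX proteins, searched as TGTGGT on either strand, that is, as TGTGGT or ACCACA.
Runx3 upstream promoter: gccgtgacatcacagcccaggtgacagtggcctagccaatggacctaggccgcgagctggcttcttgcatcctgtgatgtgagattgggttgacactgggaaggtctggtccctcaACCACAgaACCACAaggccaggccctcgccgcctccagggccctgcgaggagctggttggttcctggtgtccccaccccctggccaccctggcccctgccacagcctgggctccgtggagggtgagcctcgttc
Runx3 downstream promoter: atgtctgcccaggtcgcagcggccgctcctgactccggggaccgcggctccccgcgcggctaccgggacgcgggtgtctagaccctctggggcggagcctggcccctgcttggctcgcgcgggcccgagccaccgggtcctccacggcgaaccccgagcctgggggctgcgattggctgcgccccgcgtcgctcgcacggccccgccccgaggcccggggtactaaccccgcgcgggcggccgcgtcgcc

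The upstream Runx3 window holds 2 copies of ACCACA, whose first bases lie 134 and 126 bases before the start, and its GC content is 65.2%. The downstream window holds 0 copies and 38 CpG dinucleotides, at a GC content of 78.8%. RefSeq gave 10 promoter entries for the 6 genes, and every gene had at least 1. The RUNX core occurred in 2 of the 10, against 14.0% of 32817 mouse promoter windows of the same length, and the GATA core (GATAA or TTATC) in 0 of the 10, against 22.6%. A match describes the letters of the window and is not evidence of binding.

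Runx3 was counted at 42.5 CPM in WT replicate 1, 43.01 CPM in WT replicate 2, 57.9 CPM in cKO replicate 1 and 56.5 CPM in cKO replicate 2, from 1810, 2094, 2226 and 2247 fragments. Both cKO libraries were above both WT libraries, and the libraries of a genotype differed by 1.01-fold in WT and 1.02-fold in cKO. Differences as small or smaller were found for 12.4% in WT and 19.9% in cKO of 3676 genes. These had a mean CPM within a factor of 2 of that of Runx3. Counting error alone gave 95% intervals of 40.5 to 44.5 CPM for WT replicate 1 and 54.2 to 58.9 CPM for cKO replicate 2. Both are wider than the difference within either genotype, so the small SDs understate the error. The means were 42.7 ± 0.385 CPM in WT and 57.2 ± 0.997 CPM in cKO (SD, n = 2 each). Output thus rose by 0.42 on the log2 scale (SE 0.11, 95% interval 0.21 to 0.63), or 1.34-fold (1.16 to 1.54), with a DESeq2 adjusted p-value of 0.00472. The size was kept when each library was left out, at 0.40 and 0.43 without the first and the second WT library and at 0.41 and 0.43 without the first and the second cKO library. The call was lost in each case, at adjusted p-values of 0.215, 0.08002, 0.417 and 0.409, and also with edgeR (0.0887) and limma voom (0.0783).

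Runx1, on chromosome 16 (92601466 to 92826074, minus strand), is the longest of the 6 genes at 224609 bp, of which 3.28% is exonic. Its starts lie 128745 bp apart. It was at 2287 and 2470 CPM in WT and at 2610 and 2413 CPM in cKO, from 95926 to 120246 fragments, and the genotypes overlapped. The difference was 0.08 on the log2 scale (SE 0.07, 95% interval -0.07 to 0.22, DESeq2 adjusted p-value 0.755). The value was 0.01 when the trend of the change on gene length was removed and stayed between 0.01 and 0.14 when a library was left out.

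Cbfb encodes the partner that stabilises DNA binding of all RUNX proteins and lies on chromosome 8 (105170674 to 105217988, plus strand, 47315 bp). It was at 138.2 and 139.0 CPM in WT and at 153.1 and 155.9 CPM in cKO. The cKO libraries were above the WT libraries, by more than the difference within either genotype, as for Runx3. The log2 fold change of 0.15 (SE 0.08, 95% interval -0.01 to 0.31), or 1.11-fold, did not pass, with an adjusted p-value of 0.379 with DESeq2 and 0.288 with edgeR. Without any 1 library the value was between 0.14 and 0.18.

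Levels of different genes were compared as CPM per kb of counted gene, since longer genes collect more fragments. The whole gene length was used. For a gene with more than 1 start, output from the downstream start alone would thus be spread over bases that are not transcribed. Which start was used was not tested. Of the fragments per kb assigned to the RUNX genes, Runx1 took 92.6% and 93.1% in WT and 91.5% and 90.98% in cKO. Runx3 took 6.73% and 6.35% in WT and 7.95% and 8.35% in cKO, and Runx2 took at most 0.71% in any library. Within a library, the level of Runx1 per kb was 13.8 and 14.7 times that of Runx3 in WT and 11.5 and 10.9 times in cKO. The log2 ratio of Runx1 to Runx3 was thus lower in both cKO libraries, by -0.34 in the mean (exact two-sided permutation p = 0.333, the smallest that 2 against 2 libraries allow).

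Zbtb7b, on chromosome 3 (89377644 to 89393378, minus strand, 15735 bp, of which 30.5% is exonic), had a lower mean in cKO that rested on 1 library. RefSeq starts lie 5707 bp apart, at windows chr3:89393379-89393628 and chr3:89387672-89387921, both on the minus strand. They are shown because RUNX proteins are known regulators of this gene, with the RUNX core in capitals.
Zbtb7b upstream promoter: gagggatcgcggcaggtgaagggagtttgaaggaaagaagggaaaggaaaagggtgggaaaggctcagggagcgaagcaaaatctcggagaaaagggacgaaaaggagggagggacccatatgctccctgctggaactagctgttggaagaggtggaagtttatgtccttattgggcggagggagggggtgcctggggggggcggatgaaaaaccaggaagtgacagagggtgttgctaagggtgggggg
Zbtb7b downstream promoter: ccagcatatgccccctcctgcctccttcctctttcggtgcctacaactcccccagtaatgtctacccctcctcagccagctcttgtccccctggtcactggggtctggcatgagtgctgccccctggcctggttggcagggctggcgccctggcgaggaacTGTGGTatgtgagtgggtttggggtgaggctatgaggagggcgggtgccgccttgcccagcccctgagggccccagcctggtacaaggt

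The upstream Zbtb7b window holds 0 RUNX cores, and the downstream window holds 1, whose first base lies 89 bases before the start. Zbtb7b was at 16.4 CPM in WT replicate 1, 17.9 CPM in WT replicate 2, 17.5 CPM in cKO replicate 1 and 9.86 CPM in cKO replicate 2, from 697, 869, 673 and 392 fragments. The first cKO library lay within the WT range and the second far below it. Counting error gave 95% intervals of 16.2 to 18.9 CPM for cKO replicate 1 and 8.91 to 10.9 CPM for cKO replicate 2, which did not overlap. The cKO libraries differed by 1.78-fold, more than for 98.8% of the 11625 genes and more than for 99.8% of the 3321 genes with a mean CPM within a factor of 2 of that of Zbtb7b, while the WT libraries differed by 1.09-fold.

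The means of Zbtb7b were 17.1 ± 1.06 CPM in WT and 13.7 ± 5.41 CPM in cKO (SD, n = 2 each). Their difference in the fit was -0.33 on the log2 scale (SE 0.23, 95% interval -0.78 to 0.13), with a DESeq2 adjusted p-value of 0.586, so the interval spans a decrease to 0.582-fold and an increase to 1.09-fold. Without cKO replicate 2 the value turned to 0.03. Without cKO replicate 1 it was -0.79, with an adjusted p-value of 0.1401, and without WT replicate 1 or WT replicate 2 it was -0.40 or -0.25.

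Gata3, on chromosome 2 (9857078 to 9878600, minus strand, 21523 bp), encodes the zinc finger factor needed for CD4 lineage cells. It was at 47.5 and 57.9 CPM in WT and at 55.5 and 54.8 CPM in cKO, both cKO values lying between the WT values. The spread was thus in WT, where the libraries differed by 1.22-fold, against 1.01-fold in cKO. In log2 units cKO exceeded WT by 0.06 (SE 0.12, 95% interval -0.18 to 0.30, DESeq2 adjusted p-value 0.895). Leaving out WT replicate 1 gave -0.08, and leaving out WT replicate 2 gave 0.22.

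Patz1, on chromosome 11 (3289131 to 3309083, plus strand, 19953 bp), encodes a BTB zinc finger protein that represses Cd8 genes in early thymocytes. It was at 305.2 and 328.9 CPM in WT and at 323.7 and 286.5 CPM in cKO. The genotypes overlapped, with cKO replicate 2 lowest. The log2 difference was -0.06 (SE 0.09, 95% interval -0.23 to 0.11, DESeq2 adjusted p-value 0.851). It was 0.00258 without WT replicate 2 and 0.02 without cKO replicate 2, against -0.12 and -0.14 without WT replicate 1 and cKO replicate 1. For Runx1, Gata3 and Patz1 the intervals leave changes of up to 0.22, 0.30 and -0.23 on the log2 scale unresolved, since a p-value above the threshold does not show equal output.

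**Figure D2:**
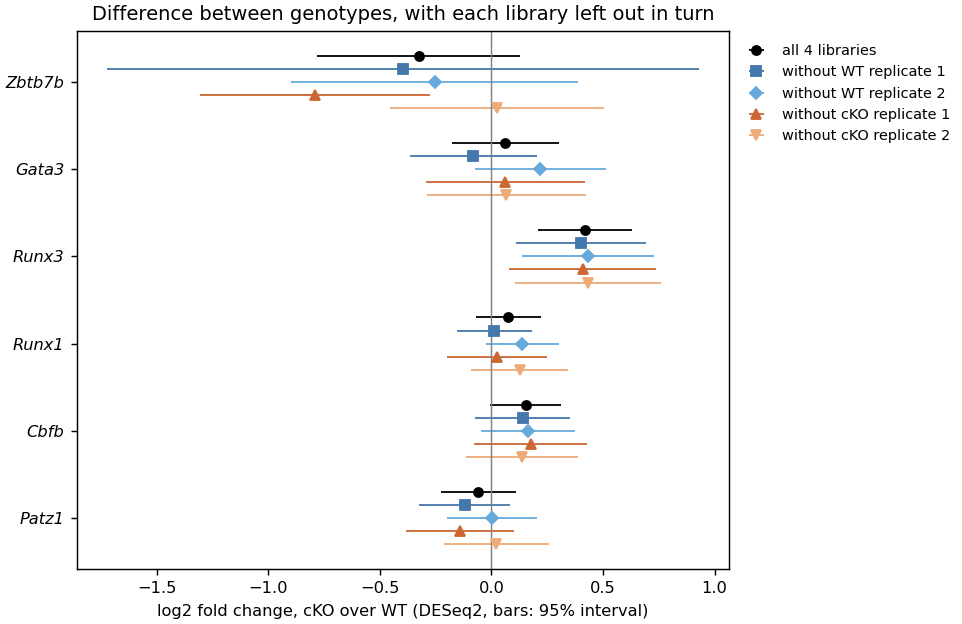
Log2 fold change of each gene, cKO over WT, in the DESeq2 fit of all 4 libraries and with each library left out in turn (x axis; bars are 95% intervals). The values of Runx3 stay between 0.40 and 0.43, while those of Zbtb7b run from -0.79 without cKO replicate 1 to 0.03 without cKO replicate 2.

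The 6 genes were then ordered by their level per kb. Patz1 was highest at a mean of 15.6 CPM per kb over the 4 libraries (range 14.4 to 16.5), above 96.6% of the 11625 genes. Runx1 followed at 10.9 (10.2 to 11.6), above 94.9% of genes, although its CPM without regard to length was the highest of the 6. Cbfb was at 3.098 (2.92 to 3.296) and Gata3 at 2.505 (2.21 to 2.69) CPM per kb.

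Zbtb7b at 0.978 (0.627 to 1.13) and Runx3 at 0.872 (0.7405 to 1.01) CPM per kb, the factors that mark the CD4 and CD8 fates, were the lowest of the 6 and stood above 38.6% and 35.9% of genes. Each gene was above the next in all 4 libraries, with no overlap of their ranges, except that Zbtb7b and Runx3 overlapped and Zbtb7b was the higher in 3 of 4 libraries. This order holds for division by the whole gene length and may differ by the start used. Per kb, Zbtb7b was at 1.403 and 1.51 times the level of Runx3 in WT, at 1.102 times in cKO replicate 1 and at 0.636 times in cKO replicate 2. The log2 ratio differed by -0.80 between genotypes (exact two-sided permutation p = 0.333, again the smallest possible). This difference joins the higher Runx3 of both cKO libraries with the lower Zbtb7b of 1. Gata3 was at 2.12 and 2.37 times the level of Zbtb7b in WT and at 2.32 and 4.06 times in cKO, where the genotypes overlapped (difference 0.45, exact permutation p = 0.667). That difference rested on 1 library, at 0.047 without cKO replicate 2 and 0.857 without cKO replicate 1.

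**Figure D3:**
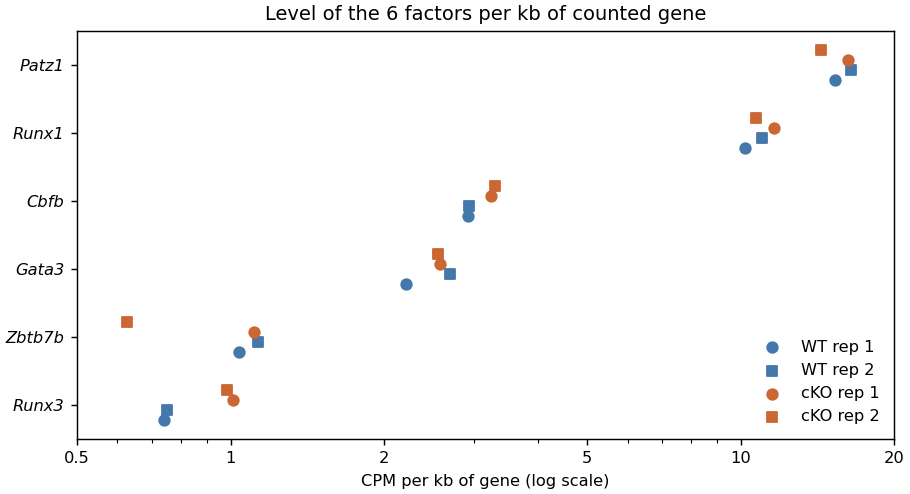
CPM per kb of counted gene for the 6 genes in each library (x axis, log scale). Patz1 and Runx1 lie above 10 CPM per kb in every library, and the ranges of Zbtb7b and Runx3, the lowest of the 6, overlap.

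The nearest gene on either side of each locus with a mean of at least 1 CPM was examined, at gaps of 7.2 to 2460 kb. A gene far away says little about sharing along a locus. Syf2, 183 kb from Runx3, had a log2 fold change of -0.17 (DESeq2 adjusted p-value 0.557). Clic4, 36.0 kb away on the other side, had one of 0.09 (0.782), and no gene overlapped Runx3. Ces2h, 150 kb from Cbfb, was at 0.20 with a mean of 0.952 CPM in WT and 1.098 CPM in cKO, too low for an adjusted p-value. D230025D16Rik, 7.2 kb away on the other side, was at -0.10 (0.805). Flad1, 9.29 kb from Zbtb7b, had a log2 fold change of 0.01, and its 8.11 CPM in cKO replicate 2 lay close to the 8.27 CPM of WT replicate 2. Adam15 on the other side was at 1.43 and 0.965 CPM in WT and 1.33 and 0.679 CPM in cKO, lowest in cKO replicate 2 as well but from few fragments.

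Rcan1 and Setd4, 135 and 757 kb from Runx1, were at -0.17 and 0.03. Of the genes beside Gata3, Taf3 was at 0.12 (adjusted p-value 0.532), and Celf2, 2460879 bp away, was called higher at 0.29 (SE 0.07, 0.00159); that call was lost with edgeR (0.107), with the length trend removed, when the value of 0.24 fell under the fold criterion, and without either cKO library. Gm15417 overlaps Zbtb7b on the other strand over 1515 bp and was at 0.78 to 1.36 CPM. Patz1 lies inside the listed span of Mir3470a on the other strand, at 195.6 to 210.3 CPM, and shares 84 bp with Gm11944 on its own strand. The library kit marks strand, but whether the counting used it was not stated. Mir3470a covers all of Patz1 yet held less than the 286.5 to 328.9 CPM of Patz1, so the fragments of Patz1 were not all shared with it. Fragments of the other overlapping genes may be shared. Drg1 and Pik3ip1, on either side of Patz1, were at -0.07 and -0.16.

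The genes most like each of the 6 over the 4 libraries were found by the root mean square difference of log2(CPM + 0.5), centred on each gene's mean, among genes with a mean of at least 10 CPM. For Runx3 these were St8sia4 (0.0138) and Colq (0.0163), and 46 genes lay within 0.05 of it. For Zbtb7b they were Cd52 (0.0865) and St3gal2 (0.0883), and 0 genes lay within 0.05, so its profile was the least shared of the 6. Within the same distance lay 577 genes for Runx1, with Map3k1 and Ercc6l2 nearest, and 700 for Cbfb, with Cpsf6 and Psd3 nearest. Gata3 had 132, with Ldlrad3 and Slx4ip nearest, and Patz1 had 402, with Npcd and Atp6v1f nearest. With 4 libraries such likeness is a description of these libraries.

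Of 19 other regulators of the same network, 2 were called higher in cKO and 1 lower, beside 2.14% and 1.57% of all genes, and the median log2 fold change was -0.01. Myb, a factor needed for thymocyte development and CD4 lineage differentiation, was at 579.2 and 583.7 CPM in WT and at 806.5 and 843.6 CPM in cKO, without overlap. Its log2 fold change was 0.50 (SE 0.07, DESeq2 adjusted p-value 3.91e-10). It was called under each of the other tests and with each library left out (0.46 to 0.54) and was the only gene of the network and lineage lists that edgeR called (0.028).

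Tox, which is needed for the CD4 lineage and is a paralogue of Tox4, was at 683.4 and 728.0 CPM in WT and at 992.0 and 867.6 CPM in cKO, without overlap. Its log2 fold change was 0.39 (SE 0.08, adjusted p-value 0.000141 with DESeq2 and 0.0934 with edgeR), and the call was lost without cKO replicate 1, at 0.30 (0.307). Tcf7, which encodes TCF-1, was at 4019 and 4236 CPM in WT and at 3679 and 2919 CPM in cKO. It fell by 0.33 on the log2 scale (SE 0.09, adjusted p-value 0.0174 with DESeq2 and 0.237 with edgeR). The Tcf7 call was lost without WT replicate 1, WT replicate 2 or cKO replicate 2, with values of -0.37, -0.28 and -0.17, while cKO replicate 1 could be left out (-0.49, adjusted p-value 0.00175). Tcf12, an E protein gene, had an adjusted p-value of 0.016 but a log2 fold change of 0.23, under the fold criterion.

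Of the 3 coreceptor genes that these factors control, 0 were called higher and 1 lower, beside 2.14% and 1.57% of all genes. Cd4 was at 621.2 and 714.9 CPM in WT and at 690.1 and 694.0 CPM in cKO, with the cKO libraries inside the WT range and a difference of 0.05 in log2 units (SE 0.08, adjusted p-value 0.881 in DESeq2). Cd8a was at 498.0 and 629.3 CPM in WT and at 394.7 and 382.9 CPM in cKO, without overlap, and was called lower at -0.54 (SE 0.1001, adjusted p-value 1.21e-05 with DESeq2 and 0.0887 with edgeR). That call was made with each library left out, between -0.71 without WT replicate 1 and -0.35 without WT replicate 2. Cd8b1, which lies beside Cd8a, was at 355.7 and 433.1 CPM in WT and at 396.9 and 324.9 CPM in cKO (-0.13, SE 0.11, adjusted p-value 0.668).

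**Figure D4:**
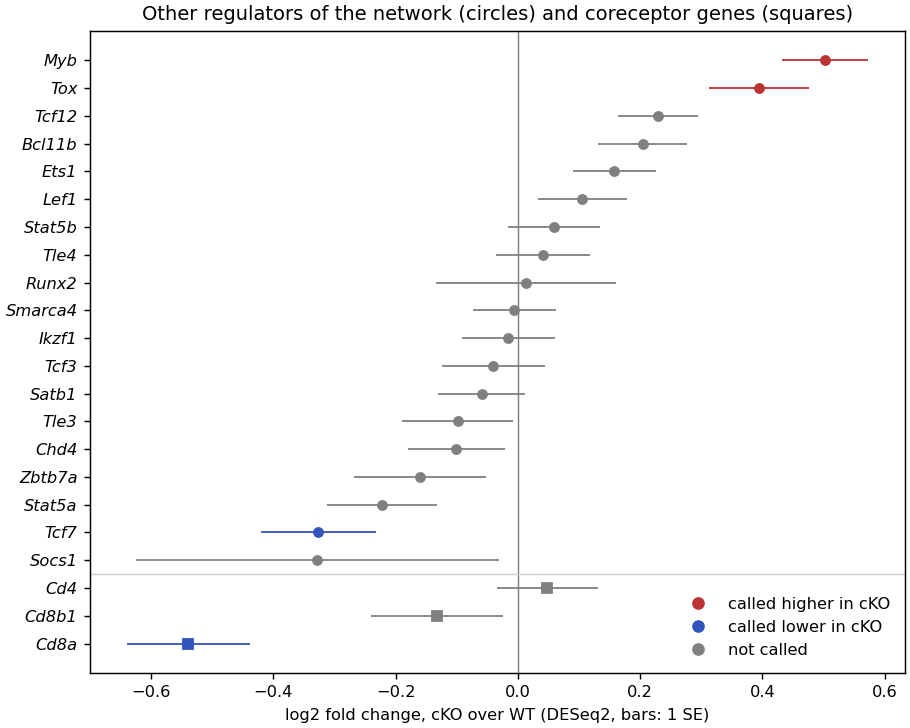
Log2 fold change, cKO over WT, of the 19 other regulators (circles) and the 3 coreceptor genes (squares) in DESeq2 (x axis; bars are 1 SE), coloured by call. Myb and Tox were called higher, at 0.50 and 0.39, Tcf7 and Cd8a lower, at -0.33 and -0.54, and the rest were not called.

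Genes that mark the lineages after the choice were examined in the same way. Of 10 CD8 lineage genes, 3 had a mean of at least 1 CPM (Tbx21, Itgae and Il2rb), Gzmk was at 0 in every library, and 0 were called. Their summed level was 23.3 and 16.9 CPM in WT and 18.4 and 15.1 CPM in cKO, of which the interleukin 2 receptor gene Il2rb alone made up 16.5 and 12.1 CPM in WT and 11.9 and 10.01 CPM in cKO. All 5 CD4 lineage genes had a mean of at least 1 CPM and 0 were called, with a median log2 fold change of -0.18. With 2.14% of all genes called higher and 1.57% lower, 0 calls in lists of this size carry no information on the members. Their summed level was 73.2 and 63.8 CPM in WT and 68.5 and 50.6 CPM in cKO. Of the 5, 4 had their lowest value in cKO replicate 2, the library in which Zbtb7b was low, where 25.4% of all genes had theirs. Counting genes with a mean of at least 1 CPM, the same held for 4 of 7 DP genes (Cd8a and Cd8b1 among them), 8 of 19 network regulators, 2 of 5 mature SP markers examined, 1 of 3 CD8 lineage genes, 0 of 4 DN genes, 0 of 2 B cell genes and 0 of 2 myeloid genes. Cd40lg was at 6.54 CPM there against 8.61 to 9.003 CPM in the other libraries, and Icos at 24.3 against 32.1 to 37.9 CPM, while Izumo1r was not lowest there, at 3.295 CPM against 2.44 to 3.36 CPM.

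The 5 markers of mature SP cells examined here had 1 positive log2 fold change among them. Il7r was called higher, Ccr7 was called lower, and Itgb7 (-0.37), Klf2 (-0.28) and S1pr1 (-0.03) were not called, beside 2.14% of all genes called higher and 1.57% called lower. Ccr7, a chemokine receptor gene of mature thymocytes, was at 255.3 and 243.3 CPM in WT and at 213.0 and 180.7 CPM in cKO (-0.34, SE 0.09, DESeq2 adjusted p-value 0.00714), and its call was lost without WT replicate 1 and without cKO replicate 2 (-0.32 and -0.23).

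Il7r, the interleukin 7 receptor gene, was at 61.96 and 61.7 CPM in WT and at 83.1 and 75.8 CPM in cKO (0.36, SE 0.0999, adjusted p-value 0.0125), a call lost without any 1 library (0.30 to 0.42). Neither Ccr7 nor Il7r was called with edgeR, at adjusted p-values of 0.137 and 0.0925. Of the 7 DP genes 2 were called lower, beside 1.57% of all genes. These were Cd8a and Rag1, the latter at -0.31 and an adjusted p-value of 0.04995. That call was lost with edgeR (0.254), with limma voom (0.253), with TMM or total count factors, with either other filter (0.0522 to 0.09025) and without any 1 library but WT replicate 1, and the value was -0.49 when WT replicate 1 and -0.12 when WT replicate 2 was left out. Of 5 genes of the earlier DN stage 0 were called, and over all genes 2.14% were called higher and 1.57% lower. The part of differing cell composition in the values of Zbtb7b and Runx3 was not tested.

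**Figure D5:**
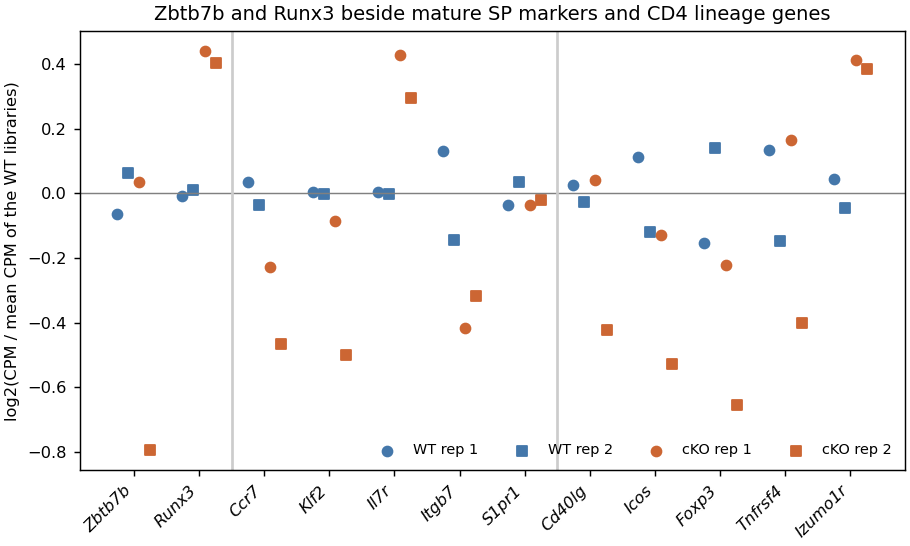
Log2 ratio of CPM to the mean CPM of the WT libraries (y axis) for Zbtb7b and Runx3, the 5 mature SP markers and the 5 CD4 lineage genes, with a point for each library. The lowest point of Zbtb7b is cKO replicate 2, as it is for 4 of the 5 CD4 lineage genes, whereas both cKO libraries lie above WT for Runx3, Il7r and Izumo1r.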

How the data were processed

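TTchem-seq of DP thymocytes was analysed for 2 WT and 2 cKO libraries, grouped by sample title. The submitters' processing notes name fastp 0.13.1, STAR 2.7.9a and featureCounts 1.6.1 and the build mm10 (GRCm38). The authors deposited expected counts, that is, fragments per gene with 8.61% fractional values, and the gene length in bp, which for all 24984 genes equalled the union of the gene's intervals, introns included. The labels describe poly(A) capture and the methods removal of ribosomal RNA. Yeast spike-in was added by the authors and not used here, so a change common to all genes would not be seen.

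Expected counts were rounded and fitted over all genes with DESeq2 1.42.0 (Wald test, default size factors and filtering, Benjamini-Hochberg adjustment). Alternatives used edgeR 4.0.16, limma 3.58.1, other scalings and filters, the replicate number as a block, other thresholds, and each library left out, with the lone library assumed to vary like the other group. CPM used the table's totals. R 4.3.3, Python 3.11.15, pandas 2.3.3, matplotlib 3.10.9, scipy 1.17.1 and numpy 2.4.6 were used. Procedures were run on counts simulated from the means and dispersions that DESeq2 fitted to these libraries. That setting shares the assumptions of the main test, so it cannot show how reliable the calls are. Molecular identifiers are not mentioned, so several fragments can stem from 1 molecule. The study describes its genomic replicates as biological, while the labels do not say that the libraries of a genotype came from separate mice. The p-values measure the spread between these libraries, which differed by more than sampling noise (chi-square per degree of freedom 40.7 in WT and 30.7 in cKO).

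The text names the 6 members, Tox4, the coreceptor genes, called genes of the lists, genes beside the members and the 2 genes most like each. Markers and lineage genes that were not called, and Tcf12, were named after their values were seen. A further marker of the mature SP list is not reported here, so no sum or median is given for that list. The members and lists were chosen with earlier results of these data known.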

Additional observations from a re-analysis of the deposited data

How the results depend on the processing

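Of the 6 members, Runx1 and Cbfb kept their direction under each of the 13 alternatives and were not called. Runx3 kept its direction in all 13 and its call in 5, the 3 other scalings and both filters. It was lost with edgeR (0.42, adjusted p-value 0.0887), limma voom (0.41, 0.0783) and any 1 library left out (0.4004 to 0.4337). Sign changes came only from leaving out a library: Zbtb7b ran from -0.7893 without cKO replicate 1 to 0.0267 without cKO replicate 2, Gata3 from -0.08046 without the first to 0.2195 without the second WT library, and Patz1 from -0.1407 without cKO replicate 1 to 0.002579 without WT replicate 2 and 0.0225 without cKO replicate 2. Members called higher numbered 0 with edgeR, limma voom, a fold criterion of 1.5 and any 1 library left out. Without cKO replicate 2, 0 neighbouring pairs in the order of levels overlapped.

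Over all genes, 249 were called higher and 182 lower. These counts became 59 and 17 with edgeR, 57 and 16 with limma voom, and 106 and 44 at a fold of 1.5. With a library left out they ranged from 61 to 320 and from 28 to 126, the lowest without cKO replicate 2 and the highest without WT replicate 2. With 2 libraries a genotype the cause of the lost calls was not tested.

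Libraries sharing a replicate number did not deviate together (correlation -0.03), and the number is not known to pair mice. With it as a block, Runx3 was at 0.4183 with DESeq2 (adjusted p-value 0.1202) and 0.4154 with edgeR (0.1041), and 0 members were called. Over all genes, 121 and 72 were called higher and lower with DESeq2 and 67 and 29 with edgeR. The DESeq2 calls of Ccr7 (adjusted p-value 0.0581), Il7r (0.183), Tcf7 (0.095), Celf2 (0.0862), Rag1 (0.257) and Tox4 (0.361) were lost with the block. Those of Myb, Tox and Cd8a were kept, and with edgeR and the block only that of Myb was.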
